A study of Mus musculus with 28 samples.

Results

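The RNA editing enzymes described here are the 3 genes of the ADAR family (adenosine deaminases acting on RNA), Adar, Adarb1 and Adarb2, followed through postnatal development of the mouse dorsal lateral geniculate nucleus (dLGN), which lies in the thalamus and passes signals from the retina on to visual cortex. They were chosen by name and because Adarb1 was much higher at later ages in this nucleus, and all 3 were found among the 22200 genes listed for every pair of adjacent ages. Their levels over the ages are therefore given as a description, without a test. The libraries came from C57BL/6J wild-type mice of both sexes kept in standard housing, at embryonic day 18 (E18) and postnatal days 4, 10, 16, 20, 27 and 32 (P4 to P32). Each of the 7 ages had 4 libraries, described in the labels as independent samples of 4 mice, and no group carried a transgene, lesion or stimulus. The nucleus was cut out by eye from coronal vibratome sections, its total RNA was freed of ribosomal RNA, and the 28 libraries were sequenced on a NextSeq 500.

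ADAR enzymes bind double-stranded RNA and convert adenosine to inosine, which the ribosome reads as guanosine. Adar encodes ADAR1, which is found in most tissues, has an interferon-inducible long form and edits mainly the inverted repeats of transcripts. Adarb1 encodes ADAR2, which in mouse brain recodes the glutamine codon in the pore of the AMPA receptor subunit Gria2. Adarb2 encodes ADAR3, a brain protein with the same domains for which no deaminase activity has been shown and which binds double-stranded RNA. The counts measure the amount of these mRNAs and not the editing of any site, and a count per gene does not separate the long and short forms of ADAR1.

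The recoded codons show what the enzymes act on and are set out here because the mRNA levels of the same genes are described further on. Each line is the coding strand of a GENCODE M21 transcript (GRCm38), 5′ to 3′, within 1 exon, with the codon at the recoding site in capitals. In Gria2 (chr3:80706891-80706933, minus strand, exon 11) and Grik2 (chr10:49244325-49244351, minus strand, exon 12) the middle base of the CAG codon is edited, which turns glutamine into arginine. In Kcna1 (chr6:126642136-126642178, minus strand, exon 2) the first base of the ATT codon is edited, which turns isoleucine into valine. Gria3 (chrX:41610245-41610287, plus strand, exon 11) and Gria4 (chr9:4464117-4464159, minus strand, exon 12) have a glutamine codon at the same place that is not known to be recoded.
Gria2: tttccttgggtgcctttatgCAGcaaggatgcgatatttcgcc
Gria3: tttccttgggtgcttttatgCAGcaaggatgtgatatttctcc
Gria4: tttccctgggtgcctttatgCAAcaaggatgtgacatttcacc
Grik2: ttggagttggagctctcatgCAGcaag
Kcna1: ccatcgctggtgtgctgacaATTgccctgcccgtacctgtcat
Over these 43 bases the Gria3 stretch differed from that of Gria2 at 3 bases and the Gria4 stretch at 5 bases.

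The 3 genes lie on different chromosomes, at the positions the authors' tables give for GRCm38. Adar (gene ID 56417) lies on the plus strand at chr3:89715022-89753455 and has 17 exons. Adarb1 (gene ID 110532) lies on the minus strand at chr10:77290727-77418273 and has 13 exons. Adarb2 (gene ID 94191) spans chr13:8202325-8768754 on the plus strand and has 11 exons, over an interval of 566430 bases against 127547 bases for Adarb1 and 38434 bases for Adar.

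Because Adarb1 and Adarb2 were both higher at the later ages, their RefSeq promoters (GRCm38.p6, 250 bases before to 50 bases after the start) are shown. The Adarb1 window is chr10:77418224-77418523 on the minus strand, and the Adarb2 window is chr13:8202616-8202915 on the plus strand, whose start lies inside the deposited gene interval. Capitals mark matches to 4 short motifs searched on both strands.
Adarb1 promoter: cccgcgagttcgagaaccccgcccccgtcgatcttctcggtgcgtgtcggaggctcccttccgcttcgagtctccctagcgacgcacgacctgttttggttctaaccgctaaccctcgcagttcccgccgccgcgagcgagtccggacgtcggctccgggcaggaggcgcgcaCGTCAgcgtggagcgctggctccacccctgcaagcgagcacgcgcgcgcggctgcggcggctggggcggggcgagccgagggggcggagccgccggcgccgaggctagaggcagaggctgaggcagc
Adarb2 promoter: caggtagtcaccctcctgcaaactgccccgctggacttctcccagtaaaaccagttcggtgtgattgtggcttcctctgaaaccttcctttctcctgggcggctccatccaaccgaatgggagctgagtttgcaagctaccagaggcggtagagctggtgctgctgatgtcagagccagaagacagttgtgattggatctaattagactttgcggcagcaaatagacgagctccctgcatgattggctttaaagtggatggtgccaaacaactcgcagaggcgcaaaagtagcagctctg
The motifs were the cyclic AMP response element TGACGTCA, its shorter form CGTCA, which lies within it, the interferon regulatory factor core AANNGAAA and the TCF/LEF core CTTTGA. Of the 32851 promoters in the RefSeq set, 1.79% hold TGACGTCA, 20.8% hold CGTCA, 23.9% hold AANNGAAA and 16.003% hold CTTTGA. The Adarb1 window held CGTCA once, from 77 to 73 bases before the start, and the Adarb2 window held none of the 4. Of the 3 windows RefSeq gives for Adar, the last (chr3:89730468-89730767) held AANNGAAA once, from 29 to 36 bases after its start. The Adarb1 window was 73.0% G+C with 46 CG dinucleotides, and the Adarb2 window 52.7% G+C with 9, where the median of all promoters was 52.7% and 7.

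The 28 libraries held 8224746 to 40206327 reads on listed genes. Mitochondrial genes took 1.37% to 21.8% of them, and P27 library 6, at the upper end of that range, had 16938 genes with a read where the others had 19117 to 24149. A library is called by its age and its column number (3 to 6), which could not be matched to a replicate number of the labels. All 4 E18 libraries held reads of Xist and of Y-linked genes, whereas most later libraries held reads of 1 kind, so the sex make-up differs between E18 and the other ages. All 9 listed relay neuron markers were measured, and their summed level in a library lay between 1393 and 6889 CPM (read counts scaled to a common library size). Inhibitory neuron markers summed to 2459 CPM beside 1721 CPM of relay neuron markers in P20 library 3. They summed to 2836 CPM beside 1393 CPM in P32 library 3. A piece made up mainly of relay nucleus is thus in doubt for these 2 libraries, though sums over unlike marker lists do not measure shares of cells. In the other 26 libraries relay neuron markers had the higher sum. Choroid plexus markers (5 of 5 measured) summed to 143 to 1041 CPM at E18, against 2.69 to 29.9 CPM in the libraries of P4 to P32. Cortical and hippocampal markers (8 of 8 measured) summed to 455 to 659 CPM at E18 and 194 to 557 CPM at P4, and to at most 234 CPM from P10 on.

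Adarb1, the editor of glutamate receptor pore codons, was higher at each age from E18 to P10 and stayed high until P32. Levels are given as CPM after TMM scaling of all libraries together, for libraries 3, 4, 5 and 6 in turn. At E18 they were 84.7, 45.4, 57.2 and 67.3 CPM, and at P4 182, 260.0, 103 and 237 CPM. At P10 they were 427, 671, 531 and 663 CPM, and at P16 464, 720.2, 1494 and 1447 CPM. The libraries of E18, P4 and P10 did not overlap, while the highest P16 library stood at 3.22 times the lowest. At P20 the levels were 546, 833, 1537 and 726 CPM, at P27 588, 1283, 1631 and 1380 CPM, and at P32 502, 1497, 1619 and 1393 CPM. From P16 on library 3 was the lowest of its age at each of the 4 ages.

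Averaged over 4 libraries, Adarb1 was at 63.7 ± 16.6 CPM at E18, 196 ± 69.7 at P4, 573 ± 116 at P10, 1031 ± 518 at P16, 911 ± 434 at P20, 1221 ± 446 at P27 and 1253 ± 509 CPM at P32 (SD, n = 4 each). P4 was 3.07-fold above E18, with every P4 library above every E18 library, as was the case with P4 higher for 8.12% of all genes. P10 was 2.93-fold above P4, again without overlap, as for 11.7% of genes with P10 higher. The P16 mean was 1.80-fold the P10 mean, with P16 libraries higher in 13 of 16 pairs. Without the libraries numbered 3, the P16 range was 720 to 1494 CPM and the P10 range 531 to 671 CPM. This omission was chosen after the data were seen. It removed the library lowest in Adarb1 at P10 and at P16, so the gap depends on the choice. For this omission the share of all genes without overlap was not computed. P32 stood 19.7-fold above E18, a log2 difference of 4.19 (SD 0.79 at P32 and 0.38 at E18), with no overlap, as for 20.6% of genes with P32 higher. Without the libraries numbered 3 the means were 1503.0 ± 113 CPM at P32 and 56.6 ± 10.98 CPM at E18 (SD, n = 3 each), a log2 difference of 4.73. Of the 19949 genes compared between these ages, 116 (0.581%) had a larger log2 difference than the 4.19 of Adarb1 with all libraries. In the order of mean levels, the ranges of E18 and P4, and of P4 and P10, did not overlap. From P10 upward the ranges of all neighbours overlapped.

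Adarb2, the family member without shown deaminase activity, was at its E18 level at P4 and higher from P10 on. In the order of libraries 3 to 6 it was at 23.9, 15.99, 22.6 and 14.8 CPM at E18, 31.0, 18.7, 27.5 and 15.3 CPM at P4, and 82.2, 91.0, 65.7 and 96.3 CPM at P10. The E18 and P4 libraries overlapped, and all P10 libraries lay above them, where 11.7% of genes had P10 above P4 without overlap. Its levels were 159, 260.0, 312 and 263 CPM at P16, 169.7, 308, 281 and 256 CPM at P20, 183, 329.9, 341 and 304 CPM at P27, and 116, 409.9, 348 and 328 CPM at P32. As for Adarb1, library 3 was the lowest at each age from P16 on.

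The Adarb2 means were 19.3 ± 4.57 CPM at E18, 23.1 ± 7.38 at P4, 83.8 ± 13.4 at P10, 248 ± 64.5 at P16, 253 ± 59.8 at P20, 289.6 ± 72.4 at P27 and 300.4 ± 128 CPM at P32 (SD, n = 4 each). P4 over E18 was a ratio of 1.196, with P4 libraries higher in 11 of 16 pairs. P10 was 3.63-fold above P4, without overlap of libraries, as for 11.7% of genes with P10 higher. P16 was 2.97-fold above P10, again without overlap, as for 8.83% of genes with P16 higher. From P16 on neighbouring ages overlapped. P32 stood 15.5-fold above E18, a log2 difference of 3.81 (SD 0.83 at P32 and 0.34 at E18), and 164 genes (0.822%) had a larger difference. Without the libraries numbered 3 the means were 362 ± 42.7 CPM at P32 and 17.8 ± 4.17 CPM at E18 (SD, n = 3 each).

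Adar, the interferon-inducible and most widely expressed editor, varied least. Its levels in libraries 3 to 6 were 126, 88.7, 104 and 101 CPM at E18, 119, 106, 118 and 106 CPM at P4, 119.7, 144, 117 and 119.5 CPM at P10, and 153, 149, 122 and 161 CPM at P16. They were 184, 172, 124 and 179 CPM at P20, 151, 170.1, 142 and 125 CPM at P27, and 199.8, 164, 125 and 151 CPM at P32. Library 3 was not low for Adar at any of these ages.

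The Adar means were 105 ± 15.6 CPM at E18, 112 ± 7.14 at P4, 125 ± 12.5 at P10, 146 ± 17.2 at P16, 165 ± 27.8 at P20, 147 ± 18.8 at P27 and 160.2 ± 31.1 CPM at P32 (SD, n = 4 each). The libraries of adjacent ages overlapped at all 6 steps. The P32 mean was 1.52-fold the E18 mean, a log2 difference of 0.60 (SD 0.28 at P32 and 0.21 at E18). P32 libraries were higher than E18 libraries in 15 of 16 pairs, the exception being P32 library 5 at 125.1 CPM beside E18 library 3 at 126.1 CPM. Of the 19949 genes, 24.4% had a larger log2 difference than Adar.

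**Figure D1:**
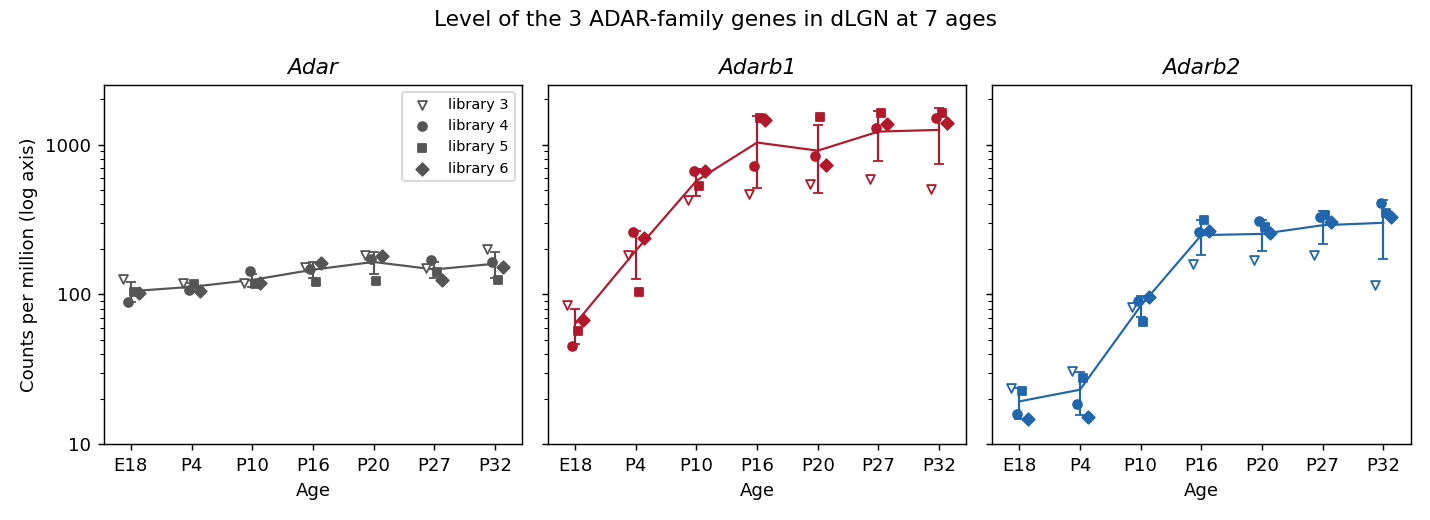
Level of Adar, Adarb1 and Adarb2 in CPM (log axis) at 7 ages, with 1 symbol per library and lines and bars for mean and SD of 4 libraries. Adarb1 reaches 573 CPM at P10 and 1253 CPM at P32, Adarb2 stays near 20 CPM until P4 and averages 248 to 300.4 CPM from P16 on, Adar stays between 105 and 165 CPM, and the open triangles (library 3) are lowest for Adarb1 and Adarb2 from P16 on.

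Set per kilobase of the deposited gene length (6363 bases for Adar, 6984 for Adarb1 and 8983 for Adarb2), the make-up of the family turned over between E18 and P10. Adar held 59.7 ± 2.38% of the family's summed CPM per kilobase at E18, 37.8 ± 9.54% at P4, 17.9 ± 2.47% at P10 and 13.0 ± 9.41% at P32 (SD, n = 4 each). Adarb1 held 32.5 ± 3.17% at E18, 56.5 ± 11.9% at P4, 73.6 ± 3.38% at P10 and 73.4 ± 7.92% at P32. The libraries of E18, P4 and P10 thus show Adarb1 passing Adar: the ratio of Adarb1 to Adar per kilobase was 0.467 to 0.612 in E18 libraries, 0.798 to 2.23 in P4 libraries and 3.25 to 5.06 in P10 libraries. Adarb2 held 7.76 ± 1.33% at E18, 5.63 ± 2.55% at P4, 8.48 ± 1.32% at P10 and 14.8 ± 3.34% at P16. Its ratio to Adar per kilobase averaged 0.130 at E18, 0.476 at P10, 1.24 at P16 and 1.42 at P32, with P32 libraries between 0.410 and 1.97. The sum of the 3 genes was 27.8 ± 5.11 CPM per kilobase at E18 and 238 ± 82.3 at P32.

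**Figure D2:**
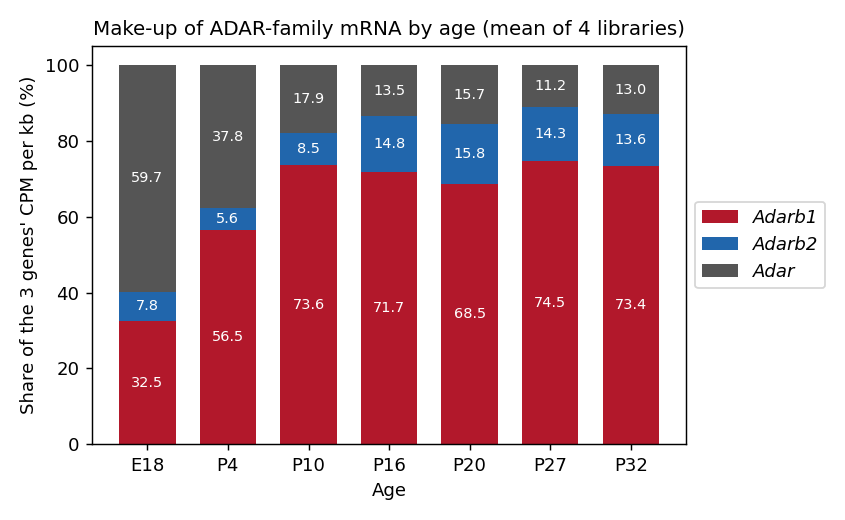
Share of each gene in the summed CPM per kilobase of the 3 genes (%), as stacked means of 4 libraries at each age. Adar makes up 59.7% at E18 and 13.0% at P32, while Adarb1 makes up 32.5% at E18 and over 68% from P10 on.

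The spread of Adarb1 and Adarb2 among libraries of the same age moved with the relay neuron markers at P16 to P32. Earlier ages differed for Adarb1. At P4 it was highest in library 4 (260.0 CPM), which had the lowest P4 sum of relay markers (2270 CPM). Cortical and hippocampal markers summed to 557 CPM there, the highest of P4. At P10 it was lowest in library 3 (427 CPM), with a relay sum of 3108 CPM where P10 libraries had 2429 to 3173 CPM. From P16 to P32, library 3 had 0.334 to 0.529 times the mean of the other 3 libraries of its age for Adarb1 and 0.320 to 0.603 times for Adarb2, but 1.04 to 1.36 times for Adar. The same libraries were low in Slc17a6, which encodes a vesicular glutamate transporter of relay neurons, with 82.6 CPM in P32 library 3 and 472 to 784 CPM in the other P32 libraries. They were high in Gad1, which encodes the GABA-synthesising enzyme of inhibitory neurons, with 1029 CPM in P32 library 3 and 117 to 134 CPM in the others. Summed over 9 markers, relay neuron RNA was at 1896, 1721, 2517 and 1393 CPM in library 3 at P16, P20, P27 and P32, where the other libraries of these ages had 2792 to 6889 CPM. Summed over the 10 measured of 11 inhibitory neuron markers, these libraries had 1560, 2459, 1276 and 2836 CPM, where the others had 638 to 1186 CPM. Oligodendrocyte markers (7 of 8 measured) summed to 39524, 34216, 46376 and 20250 CPM in library 3 at P16, P20, P27 and P32. In these markers library 3 was the highest of its age at P16, P20 and P27 and the lowest at P32. The relay marker Tcf7l2 was not low in P27 library 3, at 258 CPM beside 241 to 294 CPM in the other P27 libraries. Mitochondrial genes took 11.1% to 19.7% of reads in the 4 libraries numbered 3. Xist was at 1461 CPM in P32 library 3 and at 1.94 to 4.36 CPM in library 3 of P16, P20 and P27. The part of sex in the levels of Adarb1 and Adarb2 was not tested.

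Across the 16 libraries of P16 to P32, deviations from the age mean on the log2 scale correlated with those of the summed relay neuron markers at r = 0.96 for Adarb1, 0.93 for Adarb2 and -0.71 for Adar. With inhibitory neuron markers r was -0.79 for Adarb1, -0.94 for Adarb2 and 0.59 for Adar, and with endothelial and pericyte markers it was -0.76, -0.47 and 0.70 in the same order. With cortical and hippocampal markers r was 0.60 for Adarb1, 0.54 for Adarb2 and -0.36 for Adar, with astrocyte markers 0.44, 0.04 and -0.54, and with microglia markers 0.23, 0.10 and -0.53 in that order. With the share of mitochondrial reads r was -0.66 for Adarb1, -0.55 for Adarb2 and 0.28 for Adar. With the other 4 marker lists, total reads and the number of genes with a read, r of the 3 genes lay between -0.44 and 0.52. Over all 28 libraries, r with relay neuron markers was 0.87 for Adarb1, 0.83 for Adarb2 and -0.53 for Adar. With cortical and hippocampal markers it was then 0.48, 0.02 and -0.21, with astrocyte markers 0.05, 0.31 and 0.02, and with microglia markers 0.002, 0.17 and -0.27. The points of these correlations share library, depth and dissection, and the 4 libraries numbered 3 lie at the low end of the relay marker range. The part of cell make-up in the differences between ages was not tested, and in bulk tissue fewer cells of a type and less RNA per cell cannot be told apart.

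Set against the relay neuron markers of the same library, Adarb1 differed less between libraries of an age from P16 on and still differed between ages. The highest value was 1.16 to 1.53 times the lowest at P16 to P32, where the CPM values differed 2.77 to 3.22-fold. At P4 the spread was larger in this measure, at 2.81 times against 2.52 times for CPM, and at P10 it was 1.59 times against 1.57 times. At P32 Adarb1 amounted to 36.0%, 28.3%, 23.5% and 28.5% of the summed relay markers in libraries 3 to 6. Over the ages it amounted to 2.48 ± 0.283% at E18, 7.75 ± 3.142% at P4, 19.6 ± 3.87% at P10, 23.3 ± 3.99% at P16 and 29.1 ± 5.18% at P32 (SD, n = 4 each). For Adarb2 the same measure gave 0.766 ± 0.154% at E18, 0.902 ± 0.261% at P4, 2.83 ± 0.210% at P10, 6.18 ± 1.60% at P16 and 6.95 ± 1.43% at P32. The highest Adarb2 value was 1.71, 1.99, 1.44 and 1.64 times the lowest at P16, P20, P27 and P32. Its CPM values differed 1.97, 1.81, 1.86 and 3.54-fold at these ages, so at P20 Adarb2 did not differ less in this measure. This measure was chosen after the values were seen, and some relay markers themselves differ with age, such as Prkcd, a protein kinase C gene, at 1051 ± 553 CPM at P32 and 12.3 ± 1.53 CPM at E18.

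**Figure D3:**
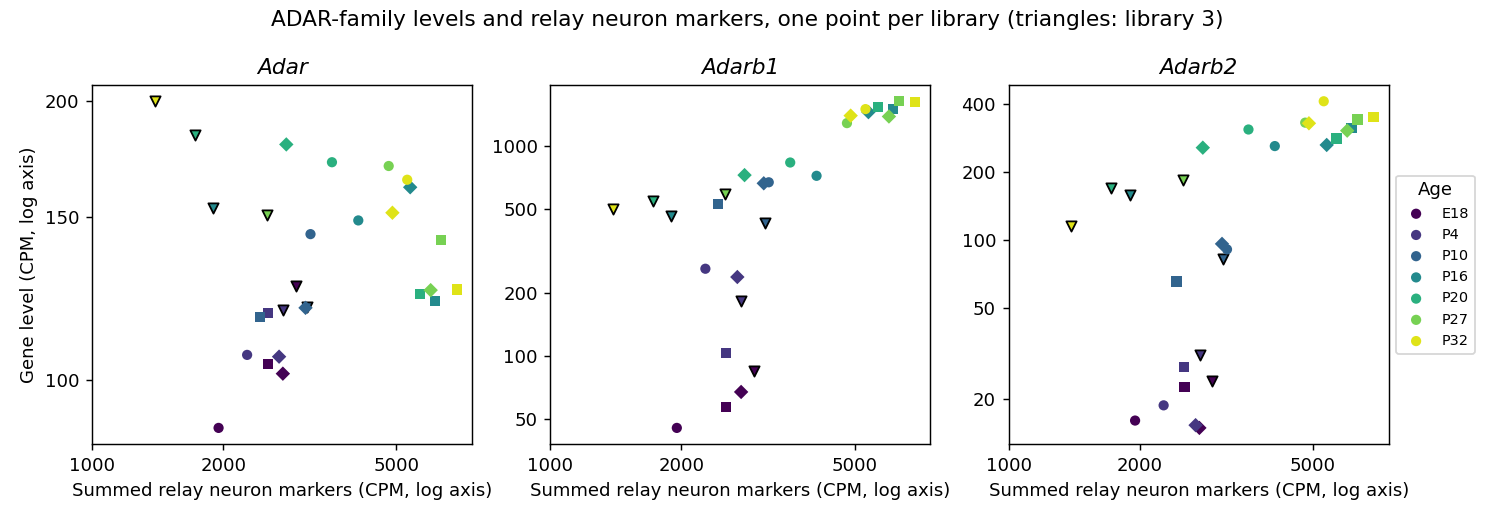
Level of each gene (CPM, log axis) against the summed level of 9 relay neuron markers (CPM, log axis), with 1 symbol per library, coloured by age, and outlined triangles for library 3. At P16 to P32 the libraries with 1393 to 2517 CPM of relay markers have the lowest Adarb1 and Adarb2, while Adar is not low there, and E18 libraries with 1952 to 2932 CPM of relay markers have Adarb1 under 85 CPM.

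The genes whose profile over the 28 libraries was most like each member were ranked by Pearson's r of log2(CPM + 0.5) among 11532 genes averaging at least 5 CPM. Adarb1 was most like Vipr2, a receptor for vasoactive intestinal peptide (r = 0.99), Tanc1, a postsynaptic scaffold gene (0.99), Cyp46a1, the brain cholesterol hydroxylase (0.98), Atp2b2, a plasma membrane calcium pump (0.98), and Akap2, an anchor of protein kinase A (0.98). Vipr2 averaged 89.4 CPM at P32 and 1.61 CPM at E18. The lowest r for Adarb1 was with Cd24a, a surface glycoprotein of immature neurons (-0.96), which averaged 4.81 CPM at P32 and 346 CPM at E18, followed by Igsf9 (-0.95) and Tmem74b (-0.95). Adarb2 was most like Peak1, Clmn, Camk2a, Arid5a and Hlf (0.98 to 0.99), of which Camk2a encodes a subunit of the synaptic calcium/calmodulin kinase and averaged 590.3 CPM at P32 and 54.4 CPM at E18. Its lowest r was with Gpr161, Rcn1 and Prmt2 (all -0.98). Adar was less closely matched, at 0.90 to 0.91 with Slc4a8, Gltscr1l, Ubr2, Gga3 and Plekha6, and its lowest r was with Arpc5 (-0.90), Eif4a1 (-0.89) and Grpel2 (-0.89). Between members r was 0.92 for Adarb1 and Adarb2, 0.71 for Adar and Adarb2 and 0.59 for Adar and Adarb1. All these points share age and library, and of the deviations from age means the r of Adarb1 and Adarb2 was 0.62.

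The mRNAs that ADAR enzymes edit did not move as a block. Of 23 substrate genes tested for P32 against E18, 8 rose and 3 fell at an adjusted p under 0.05 (edgeR quasi-likelihood test, Benjamini-Hochberg over 19949 genes), where 47.5% of all genes passed in either direction, 23.4% as higher and 24.1% as lower. Their median log2 fold change was 0.03, and that of all genes -0.04. Kcna1, the voltage-gated potassium channel with the recoded ATT codon, rose to 414, 559, 476 and 483 CPM in P32 libraries 3 to 6, against 6.78, 3.91, 3.16 and 4.10 CPM at E18. Its log2 fold change was 6.74 ± 0.24 (SE, adjusted p = 6.1e-18), and no P32 library came near the E18 range. Unc80, a subunit of the sodium leak channel, rose by 3.55 ± 0.24, at 912 ± 80.6 CPM at P32 and 77.6 ± 27.5 CPM at E18 (SD, n = 4 each, adjusted p = 1.9e-12).

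Among AMPA receptor subunits, Gria2, whose pore codon ADAR2 recodes, did not pass, at 300.0 ± 89.4 CPM at P32 and 416 ± 113 CPM at E18 (log2 fold change -0.47 ± 0.23 SE, adjusted p = 0.097). It passed as lower with total-count scaling (adjusted p = 0.023), with the replicate block on the column number (0.014), without E18 library 4 (0.028) and without P32 library 3 (0.037). It did fall at P16 against P10, by 0.85 on the log2 scale (adjusted p = 0.023), at 273 ± 74.4 CPM at P16 and 488 ± 78.0 CPM at P10. Gria3 rose by 2.06 ± 0.26 (adjusted p = 2.4e-07), with 167, 199.7, 251 and 246 CPM in the P32 libraries and 69.7, 31.6, 52.6 and 53.2 CPM in the E18 libraries. Gria4 rose by 0.94 ± 0.17 (adjusted p = 3.4e-05), at 259 ± 44.2 CPM at P32 and 135 ± 35.3 CPM at E18, and its mean was highest at P10, at 345 ± 17.5 CPM. The kainate receptor subunit Grik2 did not pass, at 142 ± 15.96 CPM at P32 and 169 ± 52.6 CPM at E18 (adjusted p = 0.35).

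The remaining named substrates included a pair whose highest P32 value was in library 3. Htr2c, the serotonin receptor edited at several sites, passed as higher at P32, with 109, 24.98, 38.8 and 11.7 CPM in P32 libraries 3 to 6 and 9.41, 4.30, 11.3 and 4.22 CPM in E18 libraries (log2 fold change 2.66, adjusted p = 0.00064). Without the libraries numbered 3 the change was 1.98 (adjusted p = 0.0015). Gabra3, the GABA-A receptor subunit edited in a membrane segment, fell to 101, 14.2, 27.1 and 18.03 CPM in the P32 libraries, against 153, 106, 149 and 126 CPM at E18 (log2 fold change -1.73, adjusted p = 0.0023), and without the libraries numbered 3 the change was -2.63. Azin1, an antizyme inhibitor edited by ADAR1, and Blcap fell by 1.00 and 0.79 on the log2 scale.

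Most of the substrate calls between adjacent ages lay between P4 and P16. At P4 against E18, 1 of 23 rose (Kcna1) and 0 fell, where 7.87% of all genes passed. At P10 against P4, 7 rose and 2 fell, where 18.4% passed. The risers included Kcna1 (log2 fold change 2.60), Htr2c (2.51), Unc80 (1.79) and Gria4 (0.87), and the fallers were Gabra3 (-1.23) and Azin1 (-0.53). At P16 against P10, 4 rose and 3 fell, where 11.9% passed, with Gria3 (1.34) and Kcna1 (1.45) among the risers. With the column number as a replicate block, 7 substrates rose and 0 fell at P4 against E18, and 9 rose and 3 fell at P10 against P4, where with this block 29.4% and 36.2% of all genes passed. At P20 against P16, P27 against P20 and P32 against P27, edgeR called 0 substrates, and 0 reached an unadjusted p under 0.05 in each. DESeq2 called 0 substrates in each of these 3 comparisons. Over all genes edgeR called 0 in each, with 485, 476 and 73 genes at an unadjusted p under 0.05, and DESeq2 called 0, 6 and 0.

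Among genes known to regulate or accompany ADAR proteins, the share that passed was near that of all genes at P32 against E18. Of 18 tested for P32 against E18, 0 rose by edgeR and 8 fell, where 47.5% of all genes passed and 24.1% passed as lower. Their median log2 fold change was -0.38, and that of all genes -0.04. At an unadjusted p under 0.05 there were 9 genes of the list, and DESeq2 called 8, where these shares were 53.4% and 48.6% of all genes. Ilf2, a subunit of a nuclear complex that binds double-stranded RNA, fell by 1.33 on the log2 scale (SE 0.17, adjusted p = 2.1e-07), at 55.0 ± 9.11 CPM at P32 and 138 ± 24.7 CPM at E18. The RNA helicase Dhx9 fell by 0.88 (adjusted p = 8.0e-05) and Aimp2, known to lower ADAR2 editing, by 0.90 (adjusted p = 0.0066). Without E18 library 4 the adjusted p of Aimp2 was 0.058. Wwp2, the ubiquitin ligase that targets ADAR2, fell by 0.40 (adjusted p = 0.014), at 33.4 ± 2.35 CPM at P32 and 44.0 ± 5.20 CPM at E18, a call that other settings did not keep. Its adjusted p was 0.061 without E18 library 4, 0.068, 0.069 and 0.12 without P32 library 3, 4 or 5, 0.12 in a fit of the 8 libraries of both ages and 0.057 without the libraries numbered 3. The splicing factor Srsf9 did not pass, at 22.3 ± 4.86 CPM at P32 and 28.6 ± 10.3 CPM at E18 (adjusted p = 0.25), and passed as lower with total-count scaling (adjusted p = 0.043). Without the libraries numbered 3, 1 gene of the list rose and 5 fell, where 43.4% of all genes passed. Between adjacent ages the list had 3 called genes, Ilf2 and Dhx9 among them, all lower at P10 than at P4, where 18.4% of all genes passed. With the replicate block 2 rose and 5 fell at P4 against E18, beside 29.4% of all genes, and 5 fell at P10 against P4, beside 36.2%.

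Of the 12 other nucleic acid deaminases and their cofactors, 8 were measured well enough to test at P32 against E18. By edgeR 0 passed and 2 reached an unadjusted p under 0.05, where 47.5% and 53.4% of all genes did. DESeq2 called 2 of the 12, where it called 48.6% of all genes, and both are named here after their values were seen. Apobec4, a member of the APOBEC family of cytidine deaminases, was at 1.32 ± 1.17 CPM at P32 and 0.349 ± 0.142 CPM at E18 (DESeq2 adjusted p = 0.029, edgeR 0.052). By edgeR its adjusted p was 0.033, 0.037 and 0.048 without P32 library 4, 5 or 6, and 0.32 without the libraries numbered 3. Adad2, which encodes a protein with an adenosine deaminase domain, was below 0.5 CPM in every library of both ages (DESeq2 adjusted p = 0.044) and was not tested by edgeR.

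Genes that sense double-stranded RNA or answer interferon, a pathway that ADAR1 is known to restrain, moved in both directions. Of 23 tested of 24 listed, 5 rose and 3 fell at P32 against E18, where 47.5% of all genes passed. Their median log2 fold change was 0.24, and that of all genes -0.04. Mavs, the mitochondrial adaptor of the RNA sensors, rose by 1.02 ± 0.21 (adjusted p = 0.00023), at 8.91 ± 1.13 CPM at P32 and 4.41 ± 0.477 CPM at E18. Eif2ak2, the double-stranded RNA-activated kinase PKR, rose by 1.06 ± 0.28 (adjusted p = 0.0028), at 8.98 ± 1.38 CPM at P32 and 4.27 ± 2.08 CPM at E18. The sensor Ifih1 did not pass, at 4.22 ± 2.32 CPM at P32 and 2.71 ± 1.56 CPM at E18 (adjusted p = 0.21), and passed as higher without E18 library 3 (adjusted p = 0.043). The interferon receptor subunit Ifnar1 fell by 0.96 (adjusted p = 2.8e-07). The mean level required for naming left out further called genes, of which 3 are given here after their values were seen. Oas3, an oligoadenylate synthase activated by double-stranded RNA, fell to 0, 0, 0.0754 and 0 CPM in P32 libraries 3 to 6, against 6.14, 6.299, 4.20 and 5.40 CPM in E18 libraries. Its log2 fold change was -8.12 (adjusted p = 6.8e-09). It also fell at P10 against P4 (adjusted p = 0.0099) and at P16 against P10 (adjusted p = 0.0027). The interferon-induced genes Ifit1 and Ifit3 rose, with Ifit1 at 2.91 ± 1.32 CPM at P32 and 1.03 ± 0.815 CPM at E18 (adjusted p = 0.033), and Ifit3 at 1.72 ± 0.902 CPM at P32 and 0.483 ± 0.296 CPM at E18 (adjusted p = 0.0078). The adjusted p of Ifit1 was 0.107, 0.094, 0.068 and 0.059 without E18 library 4, E18 library 6, P32 library 3 or P32 library 6.

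**Figure D4:**
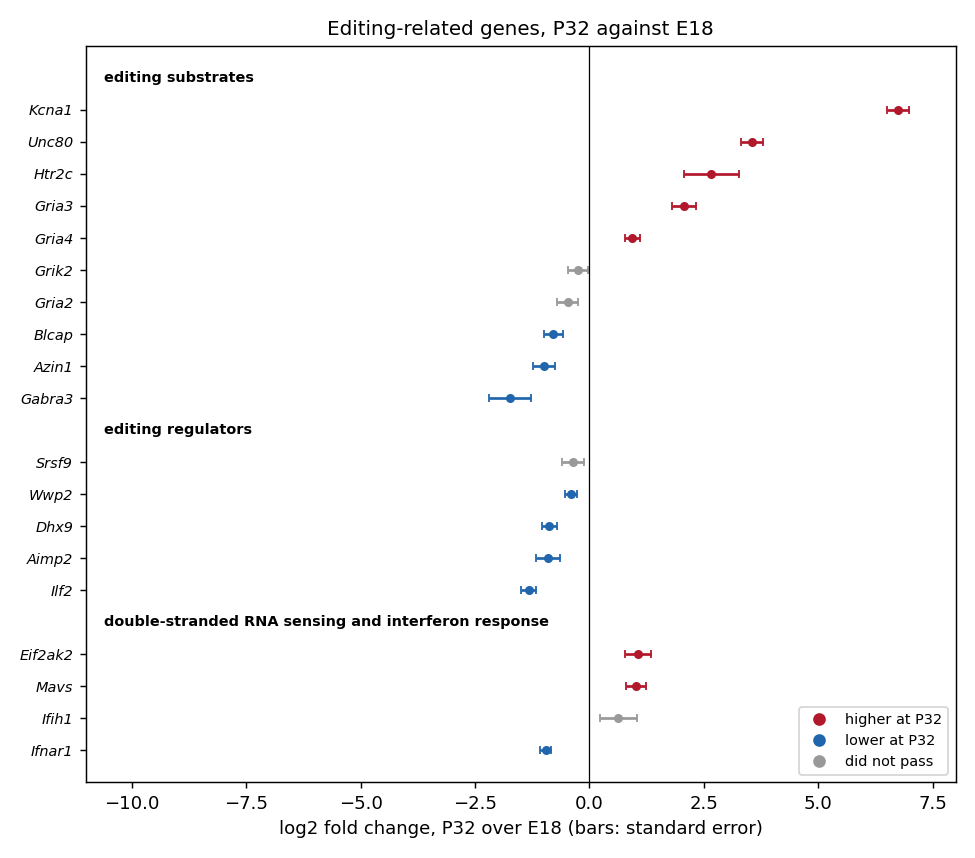
log2 fold change of P32 over E18 with its standard error for the named editing substrates, regulators and interferon-pathway genes. Oas3, Ifit1 and Ifit3, named after their values were seen, are not shown. Among the genes shown, Kcna1 (6.74) and Unc80 (3.55) stand highest and Gabra3 (-1.73) lowest. All 5 named regulators lie below 0, but Ilf2 and Dhx9 were named because they were called as lower. Over all 18 regulators tested, shown or not, the log2 fold change ran from -1.33 to 0.48. Grey points did not pass an adjusted p of 0.05.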

How the data were processed

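The authors deposited 12 tables, 2 for each pair of adjacent ages (genes higher and genes lower), with read counts per gene and library and a gene length, per the file headers. The deposited counts are raw whole numbers. Another 96 per-sample columns, which hold a read density, were not used. Per the submitters' processing notes, BWA, edgeR 3.14.0 and the mouse builds GRCm38 and mm10 were used. The sources used here name no counting tool, annotation or strand setting, so overlapping genes cannot be separated by strand.

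The 2 tables of each pair were merged and joined by gene ID over 28 libraries. Levels are CPM with TMM factors of all 28 libraries, and log2 values carry a pseudocount of 0.5 CPM. Tests of pathway genes used edgeR 4.0.16 (R 4.3.3): the quasi-likelihood test on the counts of the 8 libraries of a pair of ages, or for P32 against E18 a contrast in a fit of all 28, with filterByExpr and Benjamini-Hochberg adjustment over all genes at 0.05. The members' ages were not tested. The members and lists were chosen with earlier results of these data known. Named were the 3 members, up to 4 called risers and 4 called fallers per list with a mean of at least 5 CPM (0.5 CPM for deaminases), and a fixed set of receptor, regulator and sensor genes. Some genes of these lists enter the counts and are not reported by name here. For likeness to each member the 5 highest and 3 lowest r were taken. The fit was tested on simulated counts.

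Same-numbered libraries deviated together from their age means in P4 against E18 (correlation 0.346 to 0.642) and P10 against P4 (0.146 to 0.436), so counts of calls with the number as a replicate block are given there beside those of the tests without it. In these 2 comparisons the replicate block raised the calls to 2970 higher and 2558 lower, and to 3196 higher and 3212 lower, from 893 and 586, and from 1821 and 1446. Pooling of mice within a library is not described, and p-values measure the spread between libraries, which may be partly technical. Alternatives were RLE factors, total-count scaling, no filter, DESeq2 1.42.0, other sets of libraries in the fit, the replicate block, a pseudocount of 0.1 CPM and leaving out libraries. A count of 3 reads corresponds to 0.0746 to 0.365 CPM, and the members had at least 192 reads in every library.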

Additional observations from a re-analysis of the deposited data

Results flagged for a closer look

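Among 67 groups of 4 libraries that were screened, 5 held a library set apart from the other 3 by more than Dixon's 95% critical value, and chance alone sets about 1 in 20 groups apart in this way. Adar was at 143.6 CPM in P10 library 4, where the other P10 libraries had 117 to 119.7 CPM. Gabra3 was at 101.0 CPM in P32 library 3, the library that was low in relay neuron markers, where the others had 14.2 to 27.1 CPM. Azin1 was at 254.0 CPM in E18 library 4, where the highest E18 library had 360.3 CPM, and at 246.7 CPM in P32 library 5, where the lowest P32 libraries had 132 CPM. Oas3 was at 0.0754 CPM in P32 library 5, where the other P32 libraries had 0 reads. This lies below the 0.214 CPM that 3 reads make in that library. With 0 reads in the others, any read would have been flagged.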

How the results depend on the processing

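The log2 level differences of P32 minus E18 kept their sign under every scaling, pseudocount and omission tried, at 0.48 to 0.71 for Adar, 4.02 to 4.58 for Adarb1 and 3.61 to 4.22 for Adarb2 when a library of either age was left out, and at 0.58, 4.73 and 4.33 without the libraries numbered 3, an omission chosen after the data were seen. Total-count scaling moved the median of all genes by -0.21 and gave 0.35 for Adar. The deposited read density was not run as another unit, since 1 measure per library was used. At P4 against E18 (893 higher, 586 lower), leaving out a library gave 405 to 860 higher and 355 to 568 lower, omitting the libraries numbered 3 gave 558 and 359, DESeq2 gave 1011 lower, a fit of all 28 libraries gave 352 lower, and the replicate block gave 2970 and 2558. At P10 against P4 (1821 and 1446) these were 1260 to 1783 and 819 to 1404 with a library left out, 1203 and 866 without those numbered 3, and 3196 and 3212 with the replicate block. At P16 against P10 (1084 and 987), a library left out gave 686 to 1329 and 588 to 1180, and the replicate block 1725 and 1674; there and at P32 against E18 the numbers did not pair every library, with correlations down to 0.0369 and -0.0357. In the later comparisons, with 0 calls, the replicate block gave 1 higher at P20 against P16. At P27 against P20 there was 1 higher with total-count scaling, without the filter, with a fit of all libraries and in at most 1 omission of a library (0 to 1), and DESeq2 gave 4 higher and 2 lower. At P32 against E18, substrates lower were 6 with total-count scaling and 6 with the replicate block. Regulators higher were 1 with the replicate block, 1 without the libraries numbered 3 and 0 to 1 with a library left out. Regulators lower were 12 with the replicate block, 5 without those numbered 3 and 6 to 7 with a library left out. The share of all genes that passed with the replicate block at P32 against E18 is not given here. Of the other deaminases, 1 was higher without the filter, with DESeq2 and in a fit of 8 libraries (0 to 1 with a library left out), and 1 was lower with total-count scaling, without the filter, with DESeq2, with the replicate block and without the libraries numbered 3 (0 to 1). Interferon-pathway genes higher were 3 with total-count scaling. Of 345 re-computed values for 23 named genes 320 kept their direction and call, 13 lost and 12 gained a call, and 0 reversed. Gria2 gained one in 4 of them. The cause of these shifts was not tested. Counts per gene limit what is shown to mRNA amount.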
